A study of Mus musculus with 40 samples.

Results

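TRAJ40, TRAJ39, TRAJ38, TRAJ37, TRAJ35, TRAJ34, TRAJ33 and TRAJ32 are neighbouring J segments in the upper middle of the mouse Tcra J array, and they were taken by their place in that array; names are spelled as in the tables. They are 8 of the 43 Traj segments with a column in the deposited Tcra tables, and the rule that picks them uses no measured value. In the RefSeq annotation of GRCm38.p6, the assembly that mm10 is built on, they lie on chromosome 14 between positions 54177921 and 54186166, a stretch of 8.25 kb. Each is a short J gene segment that becomes the end of the variable exon when it is joined. TRAJ36, a pseudogene that lies between TRAJ37 and TRAJ35, is not listed in the tables. TRAJ42 and TRAJ31 are the nearest listed segments on the V side and on the constant-region side.

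The T cell receptor alpha chain is made in double positive thymocytes, where a V segment (Trav) is cut and joined to a J segment (Traj) in front of the constant region. First joins use Traj segments at the V side of the array together with Trav segments near it. Because a later join can replace an earlier one with a Traj further along and a Trav further out, a single allele can move stepwise through both arrays. The enhancer Ea behind the constant region is needed for this process, and CTCF is a protein that holds distant DNA sites together in loops. TRAJ33 has a further role in mice: joined to TRAV1, it makes the unvarying receptor chain carried by mucosal-associated invariant T (MAIT) cells.

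The study asked what the CTCF binding site at Ea (EACBE) contributes to Tcra rearrangement. Thymocytes came from C57BL/6 mice of 4 to 8 weeks, either EACBE-/-, which lack the site, or wild type, EACBE+/+. The tables hold no measure of the site itself, so the genotype could not be checked in them. The repertoire of each genotype was read in 2 libraries made from RNA by 5′ RACE, a method that copies the receptor transcript from its constant region to its start without V-specific primers. The tables held 19085 and 163953 counts in the 2 EACBE-/- libraries and 10694 and 172388 counts in the 2 wild-type libraries, so replicate 1 of each genotype is the shallow one. The labels do not say that the libraries came from separate mice, so the p-values below measure only the spread between these libraries, which may be technical. In RNA from a whole population, fewer cells with a join and less transcript per cell cannot be told apart. The tables list V and J segments only, so the labelled cell type cannot be checked against marker genes in them.

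The 8 segments together held 4716 and 37060 counts in EACBE-/- thymocytes and 2270 and 31094 counts in wild-type thymocytes. As a share of all Tcra counts this was 24.7% and 22.6% in EACBE-/-, against 21.2% and 18.04% in wild type. Both EACBE-/- libraries lay above both wild-type libraries, with means of 23.7% ± 1.49 and 19.6% ± 2.26 (SD, n = 2 each). The 95% Wilson intervals, which cover counting error only, ran from 24.1% to 25.3% and from 22.4% to 22.8% in EACBE-/- and from 20.5% to 22.01% and from 17.9% to 18.2% in wild type. The mean difference was 4.03 percentage points, and the two-sided exact permutation test gave p = 0.333, the smallest value that 2 libraries against 2 allow. Without wild-type replicate 2 the difference was 2.43 points.

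Shares add up to a fixed total, and the Traj segments at the constant-region end held less of it in EACBE-/-. TRAJ9 to TRAJ2 took 2.98% and 3.97% of counts in EACBE-/- and 7.85% and 12.9% in wild type. With the counts of TRAJ21 to TRAJ1 left out of the totals, TRAJ40 to TRAJ32 took 28.9% and 27.2% in EACBE-/- and 27.9% and 25.6% in wild type, so the libraries overlapped and the difference was 1.28 points (two-sided exact permutation p = 0.667). With each V-J pair counted once, whatever its number of counts, the share was 21.6% and 19.3% in EACBE-/- and 19.9% and 18.7% in wild type, which also overlapped. That measure depends on depth: pairs without a count numbered 1378 and 445 in EACBE-/- and 1711 and 287 in wild type. Where nearly all pairs have a count, it nears the same value in any genotype. Its overlap therefore cannot decide whether the share of counts differed.

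Among the 8 segments, TRAJ38 alone passed the test of single Traj segments, in which edgeR's quasi-likelihood fit over all 43 Traj gave Benjamini-Hochberg adjusted p-values with a threshold of 0.05. In the whole array 27.9% of Traj segments were called, 9.3% as higher and 18.6% as lower in EACBE-/-. With 8 segments, 1 call is too few to set against these shares. The median log2 change of the 8 segments was 0.36, beside 0.04 over all 43. For 5 of the 8 both EACBE-/- libraries lay above both wild-type libraries, and for none did both lie below. The same held for 41.9% of all Traj segments on the higher side, while 27.9% of all Traj lay apart on the lower side.

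TRAJ38 had 298 and 2690 counts in EACBE-/- thymocytes and 107 and 1553 in wild-type thymocytes, which is 1.56% and 1.64% of all counts in EACBE-/- and 1.00% and 0.901% in wild type. The libraries of each genotype lay close together and the genotypes far apart. TRAJ38 rose 1.68-fold in EACBE-/- (log2 change 0.76, SE 0.14, adjusted p = 0.0212), and it was still called with the totals that left out TRAJ21 to TRAJ1 (log2 change 0.56, adjusted p = 0.018), a scaling that moved the log2 changes of the tested Traj by a median of -0.21. The call was lost when EACBE-/- replicate 1 (adjusted p = 0.189), EACBE-/- replicate 2 (0.249) or wild-type replicate 2 (0.090) was left out, while the log2 change stayed between 0.68 and 0.83.

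TRAJ39, next to it, took 4.01% and 3.43% of counts in EACBE-/- and 2.92% and 2.27% in wild type. All EACBE-/- values lay above the wild-type values, with a log2 change of 0.53 (SE 0.17, adjusted p = 0.069), which missed the threshold. It was 0.35 without wild-type replicate 2, and TRAJ39 was called without EACBE-/- replicate 2 (log2 change 0.64, adjusted p = 0.031) and without wild-type replicate 1 (log2 change 0.71, adjusted p = 0.024). TRAJ34 took 3.56% and 3.64% in EACBE-/- and 2.91% and 2.72% in wild type, again apart, with a log2 change of 0.36 (SE 0.10, adjusted p = 0.061). TRAJ35, the least used of the 8, took 1.18% and 1.02% in EACBE-/- and 0.767% and 0.807% in wild type, with a log2 change of 0.48 (adjusted p = 0.111). TRAJ40, at the V-side edge, took 4.06% and 3.60% in EACBE-/- and 3.57% and 2.96% in wild type, with a narrow gap between the genotypes (log2 change 0.23, adjusted p = 0.243). With 1 library left out its log2 change lay between 0.10, when wild-type replicate 2 was the one left out, and 0.37, when it was wild-type replicate 1, and it was called in none of these fits.

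**Figure D1:**
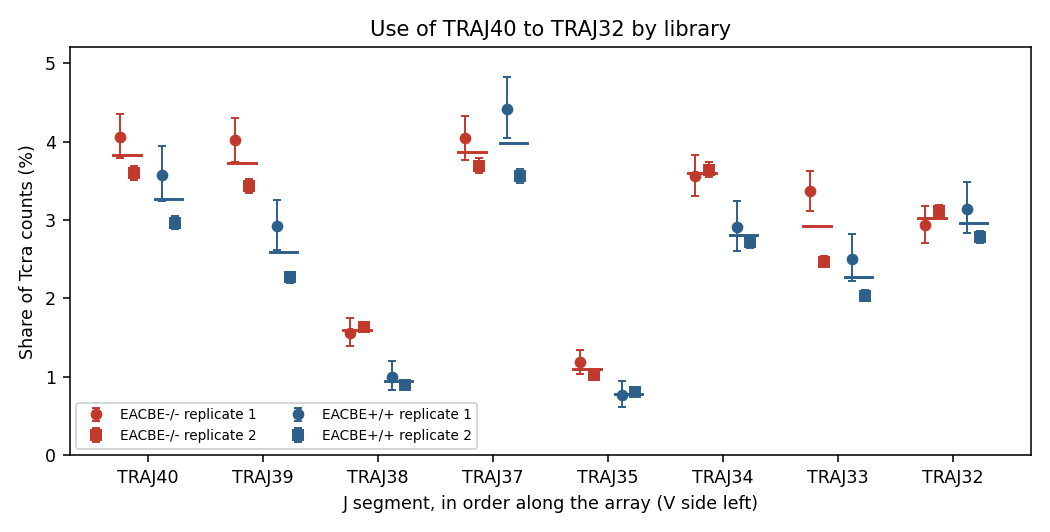
Share of all Tcra counts (%, vertical axis) taken by each of the 8 Traj segments, in the order of the array, in the 2 EACBE-/- libraries (red) and the 2 wild-type libraries (blue); circles are replicate 1, squares replicate 2, error bars 95% Wilson intervals and short lines genotype means. TRAJ38 stands apart between the genotypes at 1.56% and 1.64% against 1.00% and 0.901%, while TRAJ37 and TRAJ32 overlap.

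The remaining segments overlapped between the genotypes. TRAJ33, the MAIT segment, took 3.36% and 2.47% in EACBE-/- and 2.51% and 2.03% in wild type, where the replicates of one genotype differed as much as the genotypes did (log2 change 0.37, SE 0.20, adjusted p = 0.222). Its log2 change was 0.13 without EACBE-/- replicate 1 and 0.21 without wild-type replicate 2. It was 0.58 when EACBE-/- replicate 2 was left out, where TRAJ33 was called (adjusted p = 0.033). TRAJ37 took 4.04% and 3.69% in EACBE-/- and 4.41% and 3.56% in wild type (log2 change -0.04, SE 0.15, adjusted p = 0.886). TRAJ32, at the constant-region edge, took 2.93% and 3.11% in EACBE-/- and 3.14% and 2.78% in wild type (log2 change 0.04, SE 0.12, adjusted p = 0.883). A p above the threshold does not show that these segments were used alike.

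The listed neighbours frame the 8 segments. TRAJ42 took 3.87% and 3.70% in EACBE-/- and 3.45% and 3.15% in wild type (log2 change 0.20, adjusted p = 0.222). TRAJ31 took 5.45% and 4.72% in EACBE-/-, against 5.61% and 4.30% in wild type, and it was the most used of the 43 Traj segments in each of the 4 libraries. Along the array, the block on the V side, TRAJ50 to TRAJ42, had 3 of 8 segments called as higher in EACBE-/-, and the block on the other side, TRAJ31 to TRAJ22, had 0 of 8 called with edgeR. Set against TRAJ31 to TRAJ22 within the same library, TRAJ40 to TRAJ32 held 0.998 and 1.03 times as many counts in EACBE-/- and 0.834 and 0.874 times as many in wild type, and these ratios did not overlap (two-sided exact permutation p = 0.333). Set against TRAJ50 to TRAJ42, the ratios overlapped, at 0.978 and 0.924 in EACBE-/- and 1.11 and 0.973 in wild type.

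**Figure D2:**
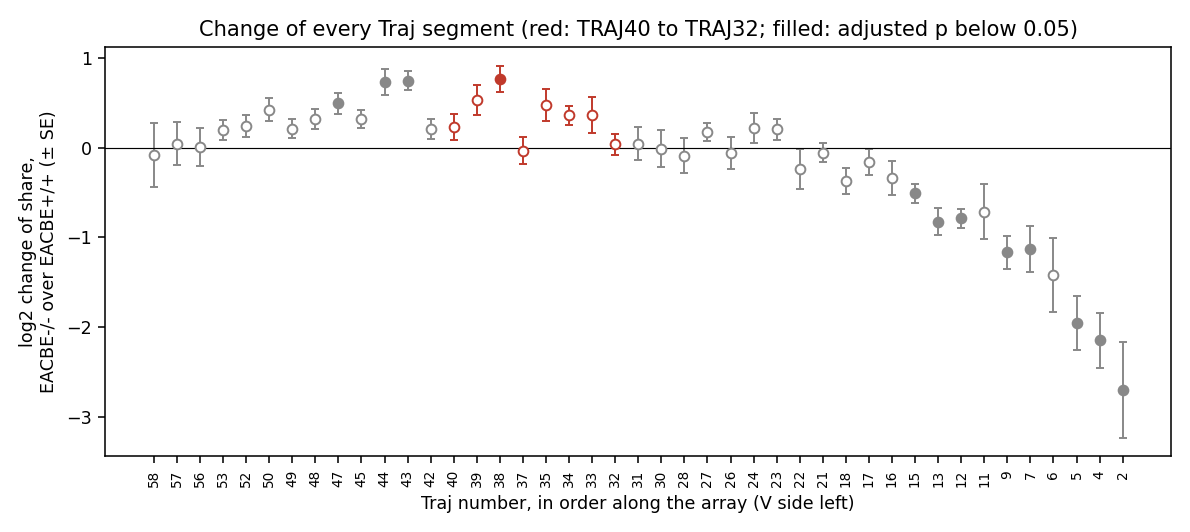
Log2 change of each Traj segment's share of counts, EACBE-/- over wild type, with its standard error, for all 43 segments in the order of the array. TRAJ40 to TRAJ32 are red and filled points passed an adjusted p of 0.05; TRAJ38 at 0.76 is the filled one among the 8, which have a median of 0.36.

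Within the 8 segments the order of use was similar at its ends and differed in the middle. In EACBE-/- thymocytes TRAJ37, TRAJ40, TRAJ39 and TRAJ34 came first with mean shares of 3.87%, 3.83%, 3.72% and 3.60%, and neighbours in this order overlapped. TRAJ32 at 3.02% lay apart below TRAJ34 and overlapped with TRAJ33 at 2.92%, and TRAJ38 at 1.60% and TRAJ35 at 1.10% each lay apart from the segment above. In wild-type thymocytes TRAJ37 led at 3.99%, followed by TRAJ40 at 3.27%, TRAJ32 at 2.96%, TRAJ34 at 2.81%, TRAJ39 at 2.59% and TRAJ33 at 2.27%, all overlapping with the next. TRAJ38 at 0.951% and TRAJ35 at 0.787% again closed the order, each apart.

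Measured against the 8 segments alone, which takes the rest of the array out of the comparison, TRAJ37 held 16.3% and 16.3% of their counts in EACBE-/- and 20.8% and 19.7% in wild type. TRAJ32 held 11.9% and 13.8% in EACBE-/- and 14.8% and 15.4% in wild type. Both lay lower in EACBE-/- without overlap. TRAJ39 held 16.2% and 15.2% in EACBE-/-, against 13.7% and 12.6% in wild type, and TRAJ38 held 6.32% and 7.26% in EACBE-/- and 4.71% and 4.99% in wild type, both without overlap in the other direction. For each of these 4 segments the two-sided exact permutation test gave p = 0.333, the smallest possible with 2 libraries against 2. TRAJ40 and TRAJ35 lay apart by a narrow margin, TRAJ40 lower and TRAJ35 higher in EACBE-/-, and TRAJ34 and TRAJ33 overlapped. Shares within the 8 also add up to a fixed total, so a lower share here need not be a lower share of all counts. As a share of all counts TRAJ40 lay higher in EACBE-/-, and TRAJ37 and TRAJ32 overlapped between the genotypes.

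The V partners of these joins came from the whole Trav array. Of 106 Trav segments in the tables, 103 and 106 had at least 1 count with one of the 8 Traj in EACBE-/- and 103 and 106 in wild type. At an equal depth of 2270 counts per library, the expected number of V segments with a count was 100.3 and 98.6 in EACBE-/- and 103.0 and 101.9 in wild type, lower by 2.99 on average (two-sided exact permutation p = 0.333). By the mean of the 4 libraries with equal weight, TRAV4-4-DV10 led among the partners of each segment except TRAJ37, where TRAV13-1 led. Both lie in the proximal part of the Trav array, the one nearest to Traj. TRAV4-4-DV10 made up 5.53% and 4.77% of all joins to the 8 segments in EACBE-/- and 4.45% and 3.44% in wild type. It ranked 1 and 2 in EACBE-/- and 1 and 6 in wild type. In replicate 2, the deep library, TRAV6-7-DV9, also proximal, led in both genotypes, with 4.93% in EACBE-/- and 4.54% in wild type. In replicate 1 it made up 2.61% in EACBE-/- and 2.07% in wild type. With TRAJ38, TRAV4-4-DV10 made up 8.05% and 6.62% of joins in EACBE-/- and 4.67% and 2.77% in wild type.

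The V use of the 8 segments was largely shared. In replicate 2, the deeper library of each genotype, the part of the V use that a pair of these Traj had in common, summed as the smaller of the 2 shares of each V segment, ran from 80.7% to 91.2% in EACBE-/- (median 87.0%) and from 82.3% to 90.4% in wild type (median 86.4%). The V use nevertheless shifted along the 8.25 kb. Joins to proximal Trav made up 52.8% and 61.1% of the Trav joins of TRAJ40 in EACBE-/- and 60.2% and 59.2% in wild type. At the other edge they made up 47.5% and 54.7% of the joins of TRAJ32 in EACBE-/- and 52.4% and 53.8% in wild type. Joins to distal Trav, the part farthest from Traj, ran the other way, with 27.1% and 21.98% for TRAJ40 and 37.7% and 27.9% for TRAJ32 in EACBE-/-, and 25.9% and 23.5% for TRAJ40 and 32.1% and 27.7% for TRAJ32 in wild type. In each library the proximal share was lower and the distal share higher at TRAJ32 than at TRAJ40.

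Over the 8 segments together the genotypes overlapped in each of the 3 parts of the Trav array. Proximal Trav took 50.2% and 58.1% of the joins in EACBE-/- and 54.9% and 56.3% in wild type. Distal Trav took 31.6% and 25.3% in EACBE-/-, against 27.7% and 25.2% in wild type, and central Trav took 18.2% and 16.6% in EACBE-/- and 17.4% and 18.4% in wild type. The replicates of EACBE-/- lay farther apart than the genotype means in each of the 3 parts.

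Set against other joins within the same library, a difference appeared. The proximal share of the joins to TRAJ40 to TRAJ32 exceeded that of the joins to the other 35 Traj by 3.00 and 2.68 points in EACBE-/- and by 10.6 and 9.67 points in wild type, a mean difference between genotypes of -7.29 points with no overlap (two-sided exact permutation p = 0.333). It was not seen against the other Traj without TRAJ21 to TRAJ1, where the excess was -0.58 and -1.32 points in EACBE-/- and 0.96 and -1.05 points in wild type, which overlapped. Against the neighbouring blocks the step was also smaller in EACBE-/-. The proximal share was above that of TRAJ31 to TRAJ22 by 10.9 and 11.3 points in EACBE-/- and by 17.4 and 14.3 points in wild type. It was below that of TRAJ50 to TRAJ42, at -6.81 and -6.75 points in EACBE-/- and -10.3 and -9.33 points in wild type. Neither pair of values overlapped, and each gave an exact permutation p of 0.333.

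**Figure D3:**
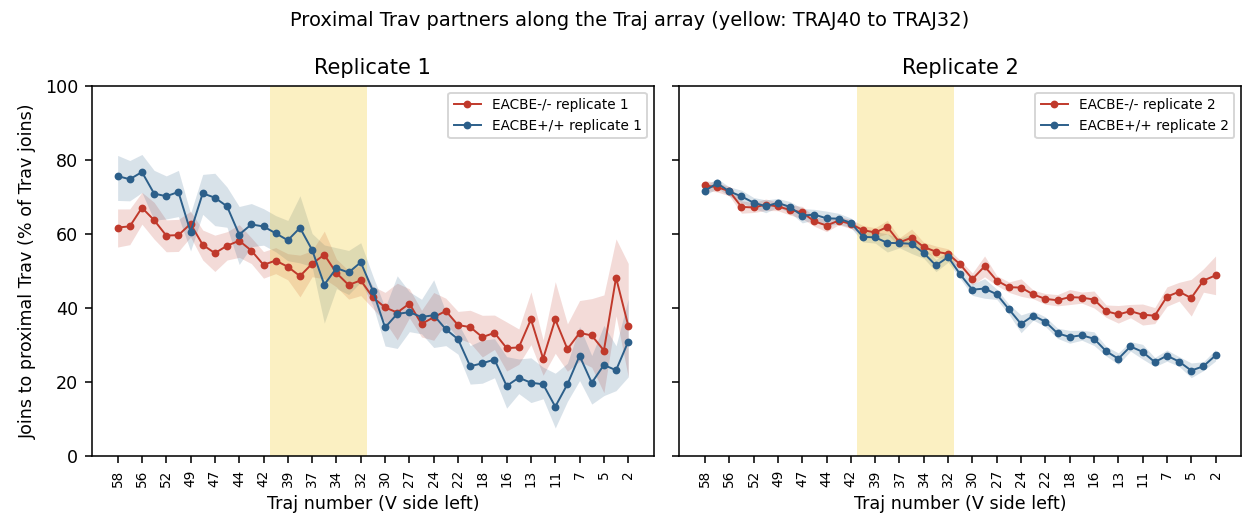
Share of each Traj segment's Trav joins that used proximal Trav (%, vertical axis) along the array in replicate 1 (left) and replicate 2 (right), with EACBE-/- in red, wild type in blue and 95% Wilson intervals shaded. The yellow band marks TRAJ40 to TRAJ32, where proximal joins made up 50.2% and 58.1% in EACBE-/- and 54.9% and 56.3% in wild type; in replicate 2 the lines run close together there and part at the right.

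Single V segments were tested within the joins to the 8 Traj, with their sum as the library size. Of 103 V segments tested with edgeR, 6 were called, 5.83%, and all 6 fell in EACBE-/-. Among them, TRAV1, TRAV2 and TRAV5-1 passed the count filter through the wild-type libraries alone, where they were high. TRAV7-1 would not have passed it through the EACBE-/- libraries alone. For these segments, entry to the test depended on the genotype with the higher counts. TRAV1, the outermost Trav gene and the V segment of MAIT cells, made up 0% and 0.0081% of these joins in EACBE-/- and 0.969% and 1.12% in wild type (log2 change -7.12, adjusted p = 1.42e-06). TRAV5-1 made up 0.0212% and 0.0432% in EACBE-/- and 0.485% and 0.482% in wild type (log2 change -3.67, adjusted p = 0.0085). TRAV7-1 made up 0.0212% and 0.0648% in EACBE-/- and 0.661% and 0.412% in wild type (log2 change -3.29, adjusted p = 0.0099). TRAV2 had 1 and 1 counts in EACBE-/- and 3 and 76 in wild type (log2 change -5.06, adjusted p = 0.0485). These 4 belong to the distal part and lie at its outer end. The call of TRAV2 was lost with TMM factors (adjusted p = 0.0619), with DESeq2 (adjusted p = 0.0802) and with no filter (adjusted p = 0.0638).

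The other 2 lie elsewhere in the array. TRAV7-2, in the central part, made up 0.615% and 0.739% of the joins in EACBE-/- and 2.20% and 2.28% in wild type (log2 change -1.71, adjusted p = 0.0085). TRAV17, in the proximal part, made up 0.297% and 0.262% in EACBE-/- and 1.32% and 1.01% in wild type (log2 change -2.05, adjusted p = 0.0085). None of the 6 differed in its change between joins to the 8 Traj and joins to the other Traj at an adjusted p of 0.05: the edgeR interaction log2 change was -1.001 for TRAV1 (adjusted p = 0.384) and between -0.21 and -0.0037 for the rest (adjusted p from 0.806 to 0.996). The calls depended on the libraries, since 4 V segments were called without EACBE-/- replicate 1, 1 without EACBE-/- replicate 2, 2 without wild-type replicate 1 and 3 when replicate 2 of wild type was left out.

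That interaction, fitted over 106 V segments with the library as a block, called 27 in all (25.5%), 16 with a more positive change in joins to the 8 Traj (15.1%) and 11 with a more negative one (10.4%). The 16 were 7 of 38 distal, 8 of 35 central and 1 of 33 proximal Trav, and the 11 were all proximal. TRAV7N-4, a central segment, made up 0.403% and 0.591% of joins to the 8 Traj in EACBE-/- and 0.176% and 0.486% in wild type, whereas in joins to the other Traj it made up 0.369% and 0.479% in EACBE-/- and 0.499% and 0.817% in wild type (interaction log2 change 1.06, SE 0.17, adjusted p = 1.27e-07). Its fitted log2 change was 0.46 in joins to the 8 Traj and -0.64 in the other joins, neither past the threshold on its own. TRAV4-3, a proximal segment, made up 1.02% and 1.31% of joins to the 8 Traj in EACBE-/- and 2.12% and 2.02% in wild type, against 0.988% and 1.29% of the other joins in EACBE-/- and 1.16% and 1.22% in wild type (interaction log2 change -0.70, SE 0.10, adjusted p = 6.16e-09). TRAV13-1, also proximal, made up 3.27% and 4.15% of joins to the 8 Traj in EACBE-/-, against 3.74% and 4.41% in wild type, and 3.64% and 4.47% of the other joins in EACBE-/- and 2.60% and 3.14% in wild type (interaction log2 change -0.61, adjusted p = 8.16e-10).

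Among the 27 that passed the threshold, the next largest interactions were those of TRAV3N-3 at 0.98, TRAV13D-4 at 0.71, TRAV10D at 0.71, TRAV8D-2 at 0.69, TRAV14D-3-DV8 at 0.69, TRAV10N at 0.67 and TRAV6N-6 at 0.60 on the log2 scale, all distal or central. Trav names with D or N belong to duplicated stretches of the array with near-identical copies, so reads may have been split between copies. The same holds for proximal segments that have such copies, among them TRAV4-3 and TRAV13-1. Whether the assignment of reads to copies shaped the split between parts of the array was not established here. With TRAJ21 to TRAJ1 left out of the other joins only 4 V segments were called, 3 of them among the 27 (1 central and 2 proximal). The fourth was TRAV19, a proximal segment with a more positive change in joins to the 8 Traj (interaction log2 change 0.56, adjusted p = 0.00799), opposite in sign to the other 2 proximal ones; with all Traj in the other joins its interaction was 0.28 (adjusted p = 0.0686). TRAV7N-4 then had an interaction of 0.87 (adjusted p = 0.000598), TRAV4-3 of -0.49 (adjusted p = 0.00799) and TRAV13-1 of -0.48 (adjusted p = 0.00799). The count also rested on the deep libraries: it was 0 without EACBE-/- replicate 2 or without wild-type replicate 2, 6 without EACBE-/- replicate 1 and 19 without wild-type replicate 1.

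**Figure D4:**
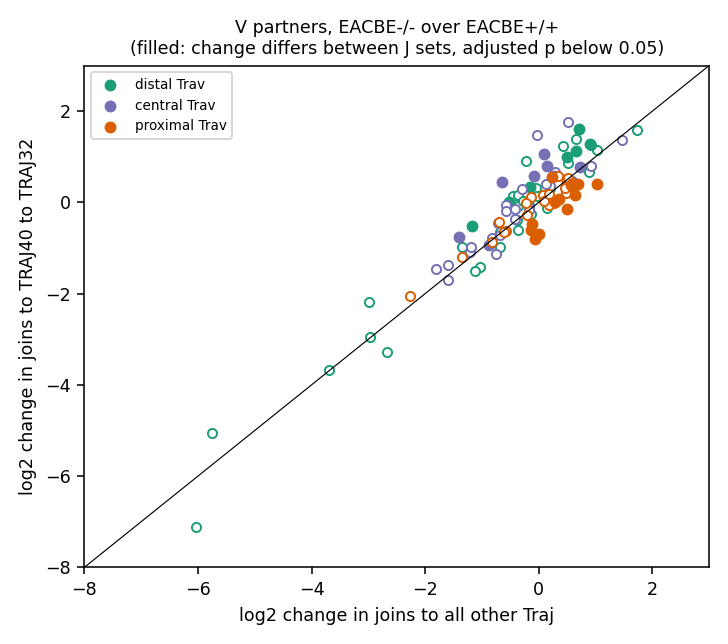
Log2 change (EACBE-/- over wild type) of each V segment's share in joins to all other Traj (horizontal axis) and in joins to TRAJ40 to TRAJ32 (vertical axis), colored by part of the Trav array; filled points differ between the 2 axes at an adjusted p of 0.05. The 11 filled proximal points with a more negative change in joins to the 8 Traj lie below the diagonal, the filled distal and central points lie above it except TRAV12N-2, and TRAV1 is the lowest point at -7.12.

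Single V-J pairs gave few calls. Of 848 possible pairs of a Trav segment with one of the 8 Traj, 509 had enough counts to be tested, and 10 passed an adjusted p of 0.05 in the edgeR fit over all 2417 tested pairs. That is 1.96% of the tested pairs, beside 3.35% over all pairs of the table, and 75 had an unadjusted p below 0.05. Of the 10, 4 rose and 6 fell in EACBE-/-, where 0.372% of all pairs rose and 2.98% fell. The 6 that fell passed the count filter through the wild-type libraries alone, where they were high. TRAV7D-4 with TRAJ38, a pair that rose, passed it through the EACBE-/- libraries alone. For these pairs, entry to the test depended on the genotype with the higher counts. The median log2 change of the 509 was 0.41, beside 0.09 over all tested pairs.

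TRAV14D-1 with TRAJ39 had 35 and 146 counts in EACBE-/- and 4 and 25 in wild type (log2 change 2.79, SE 0.61, adjusted p = 0.0051). TRAV7D-4 with TRAJ38 had 12 and 72 counts in EACBE-/- and 1 and 11 in wild type (log2 change 2.89, SE 0.73, adjusted p = 0.0194), and the same V segment with TRAJ32 had 26 and 104 counts in EACBE-/- and 3 and 31 in wild type (log2 change 2.22, SE 0.63, adjusted p = 0.0427). TRAV4-4-DV10 with TRAJ38 had 24 and 178 counts in EACBE-/- and 5 and 43 in wild type (log2 change 1.95, SE 0.54, adjusted p = 0.039). These 4 pairs were picked by a test on the same libraries. That each had both EACBE-/- libraries above both wild-type libraries as a share of the table adds no support. None was called without wild-type replicate 2 or without EACBE-/- replicate 1, and TRAV14D-1 with TRAJ39 was the one still called without EACBE-/- replicate 2 (adjusted p = 0.024).

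Of the 6 pairs that fell, 5 were pairs of TRAV1. TRAV1 with TRAJ32 had 0 and 0 counts in EACBE-/- and 9 and 102 in wild type, at least 37.0-fold lower with a floor of 3 counts over the 2 EACBE-/- libraries. TRAV1 with TRAJ33, the MAIT pair, had 0 and 0 counts in EACBE-/- and 4 and 44 in wild type, at least 16.0-fold lower (adjusted p = 0.0025). With DESeq2 the MAIT pair was not called (adjusted p = 0.0681), while TRAV1 with TRAJ32 still was (adjusted p = 0.0017). TRAV1 with TRAJ35 had 0 and 0 counts in EACBE-/- and 3 and 22 in wild type, at least 8.33-fold lower (adjusted p = 0.0446). A count of 0 among 642 and 4050 joins to TRAJ33 in EACBE-/- allows a TRAV1 share of up to 0.467% and 0.0741%, where wild type had 1.49% and 1.25%. The shallow EACBE-/- library sets the looser limit, which still lies below both wild-type shares. The share in the shallow wild-type library rests on 4 counts.

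TRAV1 with TRAJ34 had 0 and 1 counts in EACBE-/- and 3 and 53 in wild type (adjusted p = 0.0039), and with TRAJ40 it had 0 and 1 counts in EACBE-/- and 2 and 33 in wild type (adjusted p = 0.039). With TRAJ37 it had 0 and 1 counts in EACBE-/- and 1 and 44 in wild type, with TRAJ38 0 and 0 against 0 and 26, and with TRAJ39 0 and 0 against 0 and 23; these 3 pairs had too few counts in the shallow libraries to be tested. TRAV7-1 with TRAJ37 was the other pair that fell, with 0 and 2 counts in EACBE-/- and 6 and 23 in wild type (log2 change -4.36, adjusted p = 0.04997). Without wild-type replicate 2 none of the 6 had enough counts to be tested, and without EACBE-/- replicate 2 the pairs tested, TRAV1 with TRAJ32 and TRAV7-1 with TRAJ37, were not called. Over the whole table TRAV1 had 2 and 27 counts in EACBE-/- and 97 and 2347 in wild type.

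In wild type, the deep library shows which of the 8 segments TRAV1 joined. TRAJ33 made up 1.87% of the TRAV1 joins there, with a 95% Wilson interval from 1.40% to 2.51%, and 2.04% of the joins of all other V segments, so the MAIT pair did not stand out among the joins of TRAV1 in these thymocytes. In the shallow wild-type library TRAJ33 made up 4.12% of the TRAV1 joins (interval 1.62% to 10.1%) and 2.49% of the other joins. At some other segments the shares lay apart in the deep library, by intervals that cover counting error only. TRAJ32 made up 9.28% and 4.35% of the TRAV1 joins in wild type, with an interval from 3.59% to 5.25% in the deep library, against 3.09% and 2.76% of the joins of other V segments. At the V-side edge, TRAJ40 made up 1.41% of the TRAV1 joins in the deep library, with an interval from 1.00% to 1.97%, against 2.99% for the other V segments. TRAJ39 made up 0.98% (interval 0.654% to 1.47%) against 2.29%, and TRAJ37 made up 1.87% (interval 1.40% to 2.51%) against 3.58%. For TRAJ38, TRAJ35 and TRAJ34 the interval of the deep library held the share of the other V segments. The shallow library also had TRAV1 lower at TRAJ40, TRAJ39 and TRAJ37, at 2.06%, 0% and 1.03%. Its intervals there held the shares of the other V segments, 3.59%, 2.94% and 4.44%. Its intervals lay above the other V segments at TRAJ32 (4.96% to 16.7%) and, on 3 counts, at TRAJ35 (1.06% to 8.70% against 0.745%). The 8 segments together made up 22.7% and 14.8% of TRAV1 joins in wild type and 21.2% and 18.1% of the joins of other V segments.

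**Figure D5:**
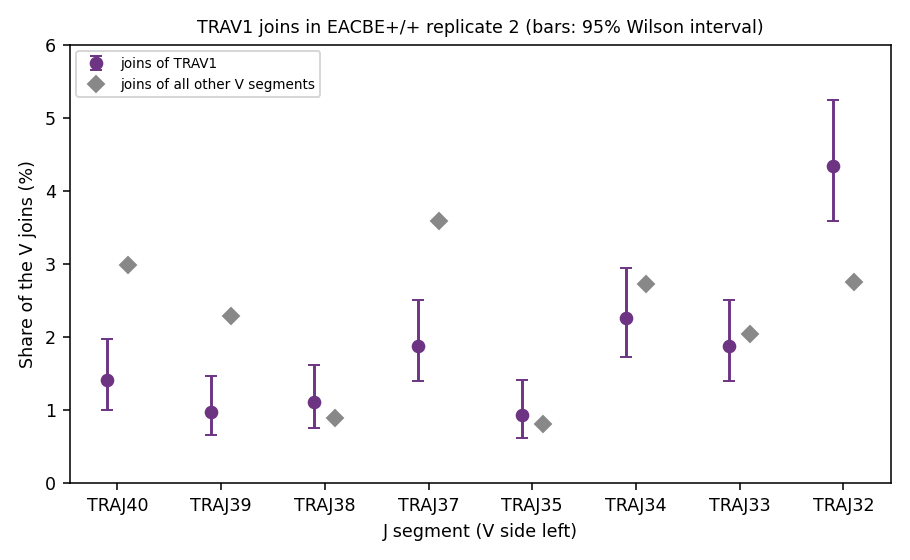
Share of V joins (%, vertical axis) that went to each of the 8 Traj segments in wild-type replicate 2, for TRAV1 (purple circles, 95% Wilson intervals) and for all other V segments together (grey diamonds). TRAV1 lies below the other V segments at TRAJ40, at 1.41% against 2.99%, at TRAJ39, at 0.98% against 2.29%, and at TRAJ37, at 1.87% against 3.58%; it is close to them at TRAJ33, at 1.87% against 2.04%, and lies above them at TRAJ32, at 4.35% against 2.76%.

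Outside the 8 segments, the Traj whose shares followed theirs most closely over the 4 libraries were TRAJ24, TRAJ48 and TRAJ42, by the Euclidean distance between log2 shares centred on each segment's mean (0.085, 0.090 and 0.112). TRAJ24 took 1.12% and 1.04% of counts in EACBE-/- and 0.982% and 0.882% in wild type. TRAJ48 took 2.99% and 2.91% in EACBE-/- and 2.52% and 2.24% in wild type. TRAJ42 is the listed neighbour on the V side, TRAJ48 lies farther on that side and TRAJ24 lies on the constant-region side.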

How the data were processed

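The 4 Tcra repertoire libraries, 2 per genotype, were analysed of the 40 samples in the series; the Trb, Trd and chromatin data were not used here. The deposited tables hold whole-number counts, made by the authors, of V segments against J segments. The sources used here do not give which program assigned segments, nor whether counts stand for reads or for receptors; if they are reads, amplification adds to the spread. The submitters' processing notes name mm10, Juicer 1.13.02, HiC-Pro 2.11.1, bedtools 2.26.0, Bowtie2 2.3.4.3 and 2.20.8, and cutadapt 0.4.4. The series also holds chromatin data, and which of these tools served the repertoire libraries was not established here. All 43 Traj and 111 V symbols matched RefSeq (GRCm38.p6); 5 Trdv segments, listed in replicate 2 alone, stayed in totals and out of V tests.

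Counts were tested with edgeR 4.0.16 (glmQLFit, glmQLFTest; R 4.3.3), genotype as the covariate, table totals (sums over the 8 Traj for partner tests) as library sizes, no TMM factors, filterByExpr with a minimum count of 10 and a minimum total of 15, and Benjamini-Hochberg adjustment over all features. The partner interaction had the library as a block. The 130 annotated Trav genes were split by position into 44 distal, 43 central and 43 proximal. Single values were compared by two-sided exact permutation tests (scipy 1.17.1), and numbers of partners at 2270 counts by analytic rarefaction. A genotype at 0 was given a floor of 3 counts. Wilson intervals are at 95%. The code was tested on simulated data.

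The segments and lists were chosen with earlier results of these data known. Named were all 8 Traj, their neighbours, the pairs and V segments past the threshold (up to 12 and 10 by size), the pairs of TRAV1, the leading partners and the 3 Traj most alike. The alternatives tried were each library left out, no filter, TMM factors, DESeq2 1.42.0, replicate number as a block, other totals, V copies summed, other bounds of the Trav parts, each pair counted once and other depths. The comparison of proximal shares between sets of joins, its alternatives, and the interaction without TRAJ21 to TRAJ1 were added after seeing the data.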

Additional observations from a re-analysis of the deposited data

How the results depend on the processing

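Calls moved with the libraries, as 2 libraries a genotype leave little to estimate their spread from. Of the 8 Traj segments 1 was called, against 2 with TMM factors, 2 with DESeq2 and between 0 and 2 with 1 library left out; TMM added TRAJ34 and DESeq2 added TRAJ39. Of the V-J pairs 10 were called, against 1 with DESeq2 and between 0 and 13 with 1 library left out. Within the joins to the 8 Traj 6 V segments were called, against between 1 and 4 with 1 library left out. The interaction between sets of joins called 27 V segments, against between 0 and 19 with 1 library left out and 4 without TRAJ21 to TRAJ1. With 1 library left out, a genotype of 1 library was assumed to vary like the other.

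The libraries of a genotype share replicate numbers with the other genotype, and the labels do not say that these pair them. Over the 43 Traj the deviations of same-numbered libraries from their genotype means had a correlation of 0.787, a hint from the data and not from the design. With the replicate number as a block, 6 of the 8 Traj, 151 V-J pairs and 50 V segments within the joins were called.

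The difference in the share of the 8 Traj was 4.03 points, 1.28 with totals without TRAJ21 to TRAJ1 and 1.13 with each pair counted once. The difference in the proximal share between sets of joins was -7.29 points, -2.25 with each pair counted once and -0.91 without TRAJ21 to TRAJ1. The difference in the central Trav part was -0.49 points and 2.57 with each pair counted once. The difference in the number of partners was -2.99 and 0 without rarefaction. Counting each pair once, or partners without rarefaction, depends on depth, so those values do not show how large a difference was.

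DESeq2 moved the log2 changes of the Traj by a median of -0.12 and totals without TRAJ21 to TRAJ1 moved them by -0.21. The log2 change of TRAJ32, near 0, moved with them to -0.0702 and -0.17, so its sign there reflects the common shift. With 1 library left out it lay between -0.054 and 0.12, that of TRAJ37 between -0.19 and 0.12, and the interaction of TRAV10N between -0.21 and 0.77. The causes of the other moves were not tested.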

Other observations

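Other segments linked to unconventional T cells were read in the same tables. The invariant natural killer T pair, TRAV11 with TRAJ18, had 6 and 65 counts in EACBE-/-, against 6 and 74 in wild type, and TRAV11D with TRAJ18 had 11 and 6 counts in EACBE-/- and 6 and 1 in wild type. These counts do not separate the invariant chain from other joins of the same segments. TRDV segments, named for the delta chain, are counted here with Traj segments, so they do not stand for delta chains. TRDV segments had counts in replicate 2 alone. They made up 1.09% of the joins to TRAJ40 to TRAJ32 in EACBE-/- and 1.21% in wild type, beside 1.89% and 2.01% of the whole tables.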
